A study of Mus musculus with 30 samples.

Results

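The ΔOlfr7Δ strain is homozygous for a deletion of the Olfr7 cluster, a block of odorant receptor (OR) genes on chromosome 9, and the comparison described here sets 6 of these mice against 6 wild-type mice. The members are the 12 lanes of cartridge MK38, chosen by their sample labels from the 30 samples of the series, and the 555 OR genes with values in these lanes out of 564 in the whole series. Of these genes, 37 lie in the deleted cluster and 518 lie outside it. Each lane held 1 μg of total RNA from the whole olfactory mucosa of 1 mouse, 21 days old. The wild-type mice (4 females and 2 males) carried the strain name 129SvEvTac and the background 129S6/SvEvTac, and the mutants (2 females and 4 males) the background 129SvEv - inbred. Lanes 1 to 6 held the wild-type animals and lanes 7 to 12 the mutants, and genotype, lane position and any difference between these 129 stocks cannot be told apart. The label of the wild-type mice names a vendor, Charles River Laboratories, which those of the mutants do not.

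OR genes encode the receptors for odorants, and a mature olfactory sensory neuron is held to express a single OR gene from 1 allele. The amount of an OR mRNA in whole mucosa therefore depends both on how many neurons chose that gene and on how much RNA each of them makes, and these cannot be told apart in bulk RNA. By sequence, mammalian ORs fall into class I, whose genes form a single block on chromosome 7 in the mouse, and the larger class II, whose genes lie in clusters on many chromosomes. When an OR gene is lost, the neurons that would have chosen it can express another OR gene, and the OR genes outside a deleted cluster are the place to look for such shifts.

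NanoString counts an mRNA through a pair of probes, a capture probe and a reporter probe, that bind next to each other. Counts were scaled by lane on the positive controls and on 5 reference genes of olfactory sensory neurons, and all levels below are such scaled counts. Because probes differ in efficiency, levels of different genes are not compared. A gene is called higher or lower when the adjusted p of limma, a linear model with variances shared across genes, was under 0.05 after Benjamini-Hochberg adjustment over all 555 OR genes.

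The probes of 4 genes on which the results turn are shown 5′ to 3′ as deposited, antisense to the mRNA. Each was aligned with the probed regions of the 37 deleted genes, and capitals mark bases without an equal partner in the closest of them. Olfr985 and Olfr447 are the genes outside the cluster that passed tTREAT, a test against a fold change of 1.3, Olfr560 is one that fell, and Olfr916 is a deleted gene with a close relative in the cluster.
Olfr985 capture: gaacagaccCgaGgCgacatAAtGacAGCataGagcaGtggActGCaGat
Olfr985 reporter: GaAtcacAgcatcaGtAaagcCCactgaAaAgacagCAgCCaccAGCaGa
Olfr447 capture: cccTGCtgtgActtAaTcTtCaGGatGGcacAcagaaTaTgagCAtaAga
Olfr447 reporter: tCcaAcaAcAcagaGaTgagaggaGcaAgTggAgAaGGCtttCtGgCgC
Olfr560 capture: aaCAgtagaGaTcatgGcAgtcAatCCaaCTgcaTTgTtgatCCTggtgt
Olfr560 reporter: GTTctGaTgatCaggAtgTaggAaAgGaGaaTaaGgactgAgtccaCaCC
Olfr916 capture: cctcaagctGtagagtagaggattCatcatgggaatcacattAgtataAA
Olfr916 reporter: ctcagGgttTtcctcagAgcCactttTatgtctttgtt

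Likeness was scored as the number of probe bases less the edits (changed, added or missing bases) in the best alignment. Because gaps also count as edits, a score can be below the number of small letters above. The probe pair of Olfr916 scored 78 of 88 against the probed region of Olfr917, its neighbour in the cluster. That of Olfr985 scored at most 63 of 100 against the probed region of any measured deleted gene (Olfr901). Its capture and reporter probes have 35 and 33 small letters. Over the 518 genes outside the cluster, the best score against such a region ran from 57.0% to 70.0% of the probe bases, with a median of 61.0%. The rest of these mRNAs, and deleted genes without values in these lanes, were not aligned. The median was also 61.0% among the genes called higher in mutants and among the others.

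The probes of most deleted genes fell to or near the level of the negative controls in the mutants, which checks the genotype labels. The 37 genes made up between 4.12% and 4.27% of the summed OR counts in wild-type mice and between 0.129% and 0.149% in ΔOlfr7Δ mice. All 37 were called lower, against 11.9% of all 555 OR genes, and in all 37 the mutants lay below the wild-type mice without overlap, against 7.21% of all 555. Counts depend on the probe as well as on the mRNA and do not rank the genes by mRNA level. The probe of Olfr969 had the highest wild-type counts of the 37, from 2833 to 3154 with a median of 3036, and from 28.9 to 40.6 with a median of 30.8 in mutants. That of Olfr916 had the lowest, from 146 to 216 with a median of 184, and at most 28.7 with a median of 22.1 in mutants. The background of a lane, the mean plus 2 SD of its 8 negative controls, ran from 35.0 to 48.8 in mutant lanes. Olfr916 stayed under it in all 6 mutants, and Olfr969 passed it in mutant mouse 1, with 40.6 counts against a background of 40.4. In 27 of the 37 genes no mutant lane passed its own background. Of the pair with like probes, Olfr917 kept between 69.1 and 88.9 counts in mutants, whereas Olfr916 stayed under the background. The smallest falls of the 37 were those of Olfr917, Olfr906 and Olfr902. Their log2 changes were -1.21, -1.47 and -1.52 in the joint fit with a second strain, described below.

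**Figure D1:**
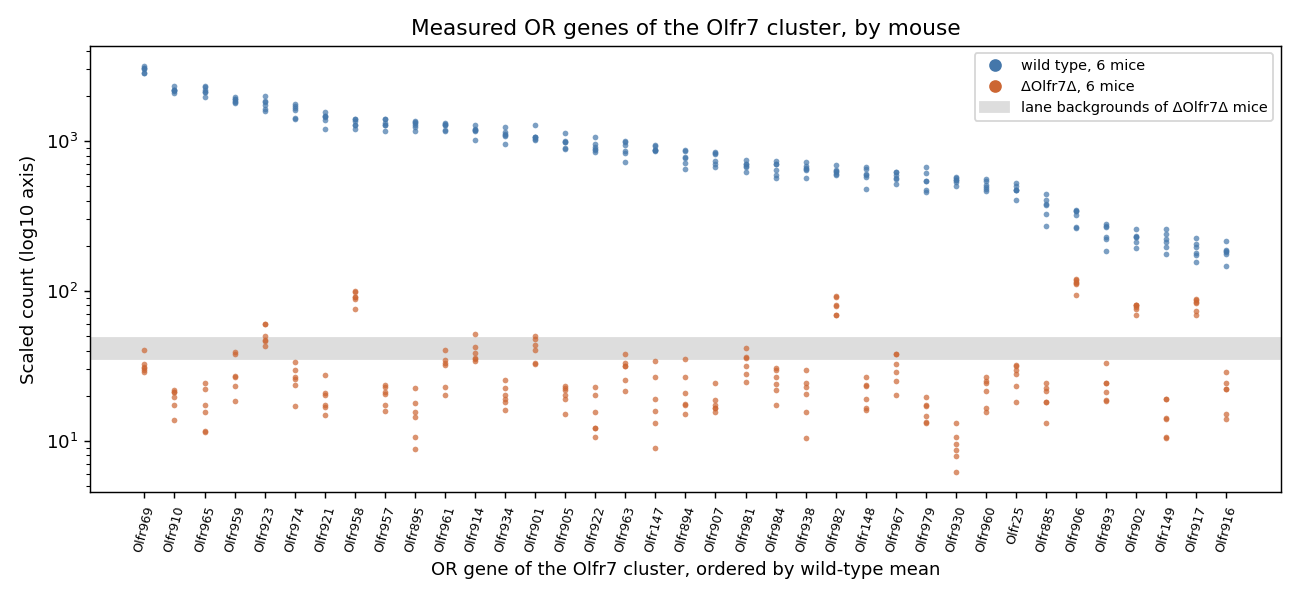
Scaled counts (log10 axis) of the 37 measured genes of the Olfr7 cluster, 1 point per mouse, ordered by wild-type mean, with the range of lane backgrounds of the mutants in grey. All wild-type points lie above all mutant points of the same gene, and Olfr906, Olfr958, Olfr982, Olfr902 and Olfr917 stand above the grey band in mutants.

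Outside the deleted cluster, small rises outnumbered falls. Of 518 OR genes, 129 were called higher in ΔOlfr7Δ mice (24.9%) and 29 lower (5.6%), and 360 did not pass the test. The median log2 change over the 518 genes was 0.08, and 350 of them had a change above 0. In 61 genes (11.8%) the counts of all mutants exceeded those of all wild-type mice, and in 3 (0.579%) they were all smaller. The rises were small in size. Among the genes called higher, 79 had a fold above 1.2, and the smallest fold called was 1.12. With tTREAT, the test of the study's methods against a fold change of 1.3 at an unadjusted p of 0.01, 2 of the 518 genes were past the threshold (0.386%), Olfr985 and Olfr447. With the lanes scaled by the median of ratios or by TMM, as described next, the 2 genes were Olfr985 and Olfr560, which fell, and Olfr447 did not pass.

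The number of these calls, and the balance of higher and lower, depended on the scale. On the positive controls alone, the median log2 change of the 518 genes was 0.26, 283 genes were called higher and 4 lower. Scaled by the median of ratios over the OR genes outside the cluster, the median was -0.01, 85 genes were called higher and 81 lower. All 85 were among the 129, and no gene changed from higher to lower. With the trimmed mean of M values (TMM) over the same genes, 93 were higher and 79 lower. All 29 genes called lower on the reference genes were also lower on both of these scales. On the positive controls alone the reference genes themselves were 0.18 higher in mutants in log2 units (two-sided exact permutation test over 12 mice, p = 0.0628).

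The reference genes code for proteins of the odorant signalling pathway in mature olfactory sensory neurons and for their marker, Omp, and they did not all move alike. In a fit with the reference genes added, Ano2, a chloride channel gene, rose by 0.13 on the log2 scale (limma, adjusted p = 0.0340). Cnga2, a subunit of the cyclic nucleotide-gated channel, fell by 0.09 (adjusted p = 0.00180) and Omp fell by 0.06 (adjusted p = 0.00742). Adcy3, the adenylyl cyclase, had a change of 0.03 (adjusted p = 0.154) and Gnal, the G protein subunit, one of -0.01 (adjusted p = 0.850). On the positive controls alone all 5 had a change above 0, so the falls of Cnga2 and Omp are relative to the other reference genes. Changes of OR genes between the genotypes of about this size rest on the choice of reference.

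On the scale of the reference genes, the 518 genes together gave more counts in mutants. Their summed scaled counts were 803310 ± 27842 (SD, n = 6) in the wild type and 858703 ± 25108 in the mutants. The highest wild-type sum was 837580 and the lowest mutant sum 821967, so that the groups overlapped. The log2 difference was 0.10 (two-sided exact permutation test, p = 0.0108), but 0.00826 with the median of ratios (p = 0.156, same exact test). A mouse's median log2 count over the 518 genes was 0.12 higher in mutants (p = 0.0108, same exact test). The 37 measured deleted genes added 0.06 on the log2 scale to the summed OR counts of wild-type mice. With these 37 included, the sum over all 555 genes was 0.04 higher in mutants (p = 0.208, same exact test). The cluster holds more OR genes than these, and those without values in these lanes enter neither number. Within females the difference of the 518 genes was 0.10 and within males 0.13, groups in which the smallest p this test can give is 0.0667.

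Class I and class II genes differed in their counts of calls. None of the 85 class I genes, which lie on chromosome 7 and all outside the cluster, was called higher on the scale of the reference genes and 10 were called lower, with a median log2 change of -0.06. Of the 433 class II genes outside the cluster, 129 were called higher and 19 lower, and the median was 0.11. A change above 0 was found in 23 of the 85 class I genes and in 327 of the 433 class II genes. Chromosome 7 also holds 63 class II genes, of which 16 were called higher and 2 lower, with a median of 0.11. This split was picked out after its values were seen, so that no test of it is given. On the positive controls alone 14 class I genes were called higher and 3 lower, and with the median of ratios or TMM none was higher and 36 were lower. The count of 10 class I genes called lower was 6 without wild-type mouse 2 or 3 and 17 without mutant mouse 4.

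A difference between the classes within a lane does not depend on the scale of the lane. The median log2 count of class I minus that of class II ran from -0.22 to -0.01 in wild-type mice and from -0.38 to -0.18 in ΔOlfr7Δ mice. The mean was -0.11 ± 0.070 (SD, n = 6) against -0.27 ± 0.072, a difference of -0.16. In 5 of 6 wild-type mice the value lay above that of every mutant, and wild-type mouse 6, a male, lay among the mutants. The difference was -0.20 within females and -0.11 within males, and stayed between -0.19 and -0.14 when 1 mouse was left out. Against the class II genes of chromosome 7 alone it was -0.16, with more overlap between the groups. The values then ran from 0.004 to 0.19 in wild-type mice and from -0.22 to 0.08 in mutants. Class I genes gave 15.3% ± 0.533 of the summed counts outside the cluster in wild-type mice and 13.8% ± 0.500 in mutants. The summed counts of class I were 122918 ± 7636 and 118485 ± 6159 in the same order, and those of class II outside the cluster 680392 ± 21251 and 740218 ± 20965.

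**Figure D2:**
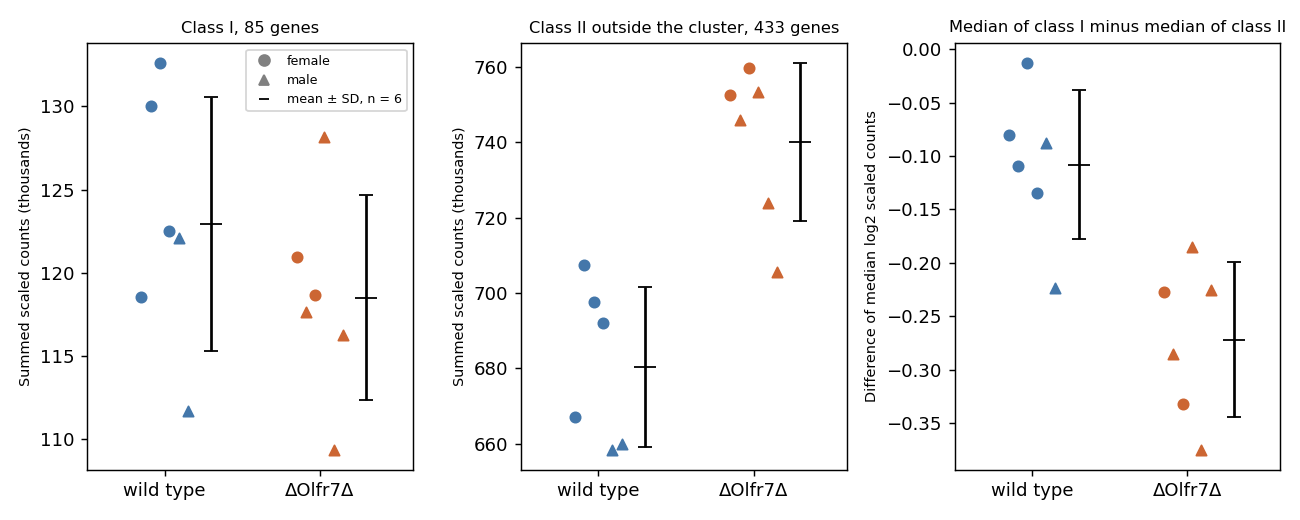
Summed scaled counts of class I genes (left) and of class II genes outside the cluster (middle), and the median log2 scaled count of class I minus that of class II (right), 1 point per mouse, circles for females and triangles for males, with mean ± SD of 6 mice. The vertical axes do not start at 0. The class I sums overlap, the class II sums of the mutants lie between 705704 and 759660 against 658260 to 707535 in wild-type mice, and the difference of the classes is lower in mutants with 1 wild-type mouse among them.

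Of the 10 class I genes called lower, Olfr629 (family MOR26) and Olfr560 (MOR14) had no overlap between the groups. Olfr629 had between 509 and 660 counts in wild-type mice, with a median of 538, and between 314 and 499 in mutants, with a median of 372. Its log2 change was -0.53 (standard error 0.10, limma adjusted p = 0.000138). Olfr560 had between 191 and 267 counts in wild-type mice, with a median of 219, and between 140 and 188 in mutants, with a median of 153. Its log2 change was -0.51 (adjusted p = 0.000490, standard error 0.11). Males alone, 2 against 4, gave Olfr560 a change of -0.38 that did not pass (adjusted p = 0.182). The others called lower in class I were Olfr64, Olfr644, Olfr645, Olfr648, Olfr649, Olfr652, Olfr676 and Olfr692, with falls of 0.16 to 0.42, and the groups overlapped in each of them.

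The only other gene whose mutants all lay below the wild-type mice was Olfr1350, a class II gene of chromosome 7. Its counts ran from 1069 to 1270 with a median of 1144 in wild-type mice, and from 804 to 1004 with a median of 954 in mutants (log2 change -0.30, standard error 0.07, limma adjusted p = 0.00117). On the positive controls alone its change was -0.12 (adjusted p = 0.225). A larger fall, noticed after its values were seen, was that of Olfr1402 on chromosome 3, by 0.69 on the log2 scale (adjusted p = 0.00460). Its counts ran from 1494 to 2734 in wild-type mice and from 648 to 2255 in mutants, so that the groups overlapped.

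Next to the deletion, Olfr985 rose and the other flanking genes did not pass the test. Olfr985, the first measured gene beyond the cluster on the side of Olfr984, had between 549 and 699 counts in wild-type mice, with a median of 612, and between 941 and 1126 in mutants, with a median of 1009. This was the largest rise among the 518 genes, with a log2 change of 0.72 (limma adjusted p = 3.56e-09, standard error 0.075), and it stayed between 0.69 and 0.76 when 1 mouse was left out. Olfr986, the next measured gene, had counts of 3525 to 3808 in wild-type mice and of 3717 to 3931 in mutants (adjusted p = 0.383 for a log2 change of 0.06). Before the first genes of the cluster, Olfr18 had a change of -0.14 (adjusted p = 0.229) and Olfr873 one of -0.07 (adjusted p = 0.392). The signs of these 3 small changes depended on the scale: on the positive controls alone Olfr18 and Olfr873 were above 0, and with the median of ratios Olfr986 was below 0. Over all 25 measured genes of chromosome 9 outside the cluster, 4 were called higher (16%) and 1 lower (4%), against 24.9% and 5.6% of all 518 genes, with a median log2 change of 0.04.

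The other large rises came from several chromosomes. Olfr746 on chromosome 14 had between 471 and 540 counts in wild-type mice, with a median of 489, and between 611 and 920 in mutants, with a median of 701 (log2 change 0.56, standard error 0.088, limma adjusted p = 9.2e-06). Olfr748, against whose probed region the probes of Olfr746 scored 88 of 100, had a change of 0.13 (adjusted p = 0.285). Olfr447 on chromosome 6 ran from 639 to 799 counts in wild-type mice and from 937 to 1104 in mutants. The log2 change of Olfr447 was 0.51 (adjusted p = 9.77e-07). Olfr16 on chromosome 1, a gene of the MOR267 family, ran from 566 to 716 counts in wild-type mice and from 835 to 1009 in mutants, and rose by 0.50 (adjusted p = 5.23e-06). Olfr432, on the same chromosome, rose by 0.42 (adjusted p = 7.06e-06). Olfr478 on chromosome 7, of the MOR204 family, rose by 0.48 (adjusted p = 4.16e-06), from a median of 1071 to one of 1512 counts.

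Chromosome 2 gave 6 of the 12 largest rises without overlap. It holds 129 of the 518 genes and gave 20 of all 61 rises without overlap. Olfr355 and Olfr356, which are next to each other in the gene order, rose by 0.49 and 0.45 on the log2 scale (limma, adjusted p = 4.16e-06 and 3.47e-05). Olfr995 had 189 to 301 counts in wild-type mice and 318 to 434 in mutants (log2 change 0.51, adjusted p = 0.000464). Olfr1156 rose by 0.48, Olfr1086 by 0.44 and Olfr1052 by 0.43. The log2 changes of all 12 genes were above 0 with an adjusted p under 0.05 on every lane scale tried, with either sex alone and when any 1 mouse was left out.

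**Figure D3:**
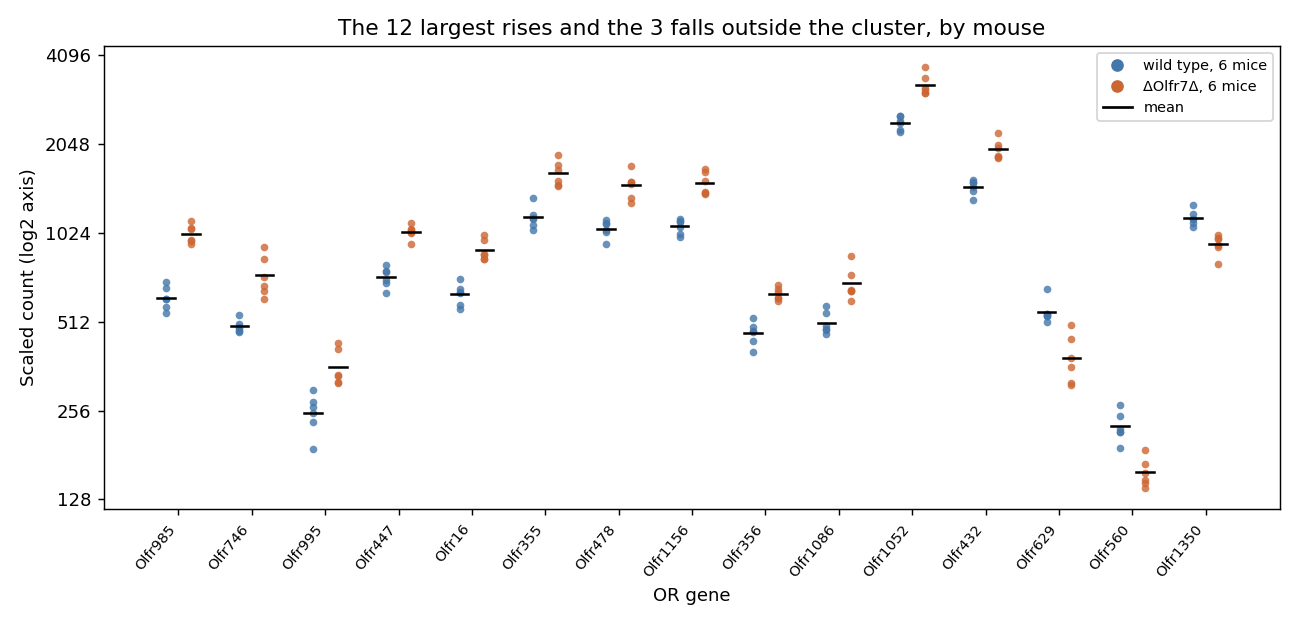
Scaled counts (log2 axis) of the 12 genes outside the cluster with the largest rises and of the 3 with falls among those called with no overlap, 1 point per mouse and a bar at the mean. For each gene the 6 mutants lie on 1 side of the 6 wild-type mice, and the distance is smallest for Olfr560, at 188 against 191 counts.

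By chromosome, on the scale of the reference genes, the share of genes called higher was largest on chromosomes 1 and 17 among those with at least 10 measured genes. On chromosome 1, 10 of 22 genes were called higher and none lower, with a median log2 change of 0.16. On chromosome 17 these were 6 of 16 and none, with a median of 0.14. With the median of ratios or TMM, 2 of these 16 genes were called higher, against 8 of the 22 on chromosome 1. The counts of all mutants exceeded those of all wild-type mice in 5 genes of chromosome 1 and in 0 of chromosome 17. Chromosome 2 had 46 of 129 higher and 4 lower, with a median of 0.13. On chromosome 7, with both classes, 16 of 148 were higher and 12 lower, with a median of -0.01, the lowest among these chromosomes but near that of chromosome 4 (3 higher and 3 lower of 12, median 0.01). The overall share of genes called higher was 24.9%, and these counts are given as a description.

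**Figure D4:**
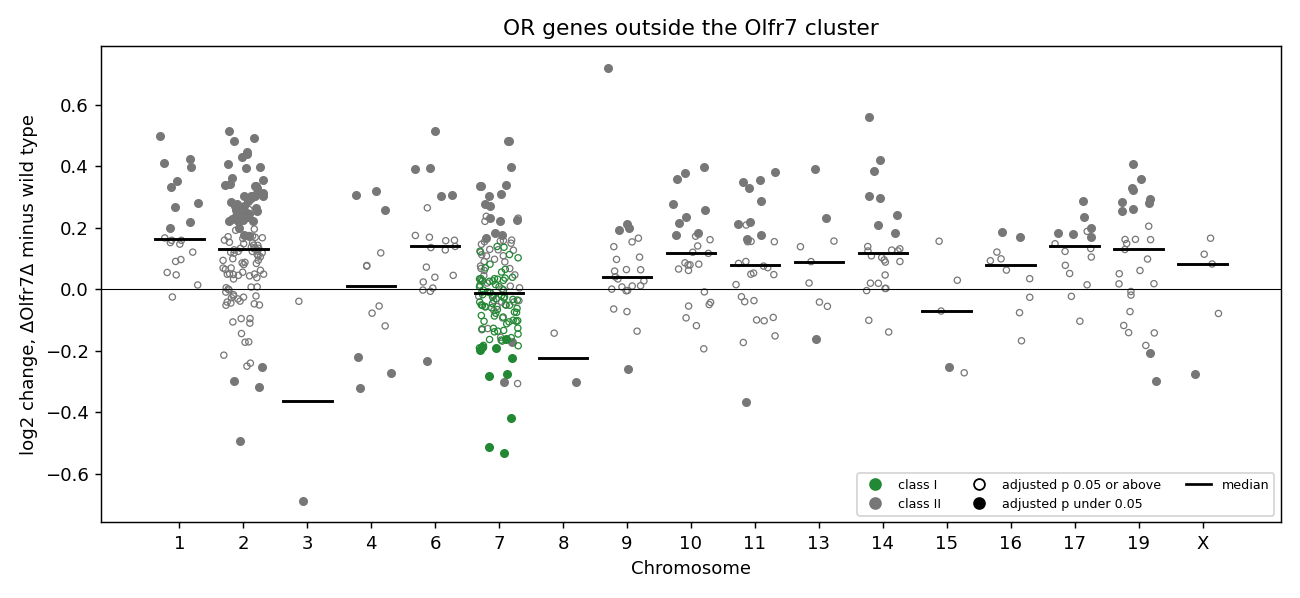
Change on the log2 scale, ΔOlfr7Δ minus wild type, of each of the 518 OR genes outside the cluster, by chromosome, class I in green and class II in grey, filled where the adjusted p was under 0.05, with the median of each chromosome as a bar. On this scale the class I genes of chromosome 7 have no filled point above 0, whereas 14 of them were called higher on the positive controls alone.

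Genes called higher were often neighbours in the order of measured genes. Of the 129, 78 had a neighbour that was called higher too, whereas 129 of the 389 other genes had one. The 389 include the 85 class I genes, which form a block of their own with none called higher. The shares therefore also reflect the split of the classes and the differences between chromosomes. There were 11 runs of 3 or more such genes. The longest was a run of 8 genes on chromosome 2, from Olfr1019 to Olfr52, with log2 changes of 0.18 to 0.41. Runs of 5 were found on chromosome 2 from Olfr1104 to Olfr1111 (0.22 to 0.31) and on chromosome 1 from Olfr430 to Olfr419 (0.20 to 0.41). Neighbouring OR genes are often close in sequence and can share regulatory elements, and the genes between the measured ones have no probe here.

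Families of the MOR nomenclature, which groups ORs by protein sequence, were counted where at least 5 measured members lay outside the cluster. There were 33 such families with 259 genes, and those named here are a description chosen from them. The share called higher was above the 24.9% of all 518 genes in 13 families, no gene was called higher in 15, and in 9 of these none was lower either, among them MOR233 with 9 genes and MOR264 with 8. The median log2 change was above 0 in 23 families. In MOR204, on chromosome 7, 8 of 14 genes were called higher and none lower, with a median log2 change of 0.27. In MOR174, on chromosome 2, 7 of 10 were higher and 1 lower (median 0.26). This family holds Olfr73 and Olfr74, known as mOR-EG and mOR-EV, receptors studied for their responses to eugenol and vanillin. Olfr73 rose by 0.27 (limma, adjusted p = 0.00260), and Olfr74 had a change of 0.20 (adjusted p = 0.0527). In MOR105 4 of 5 genes were higher (0.27), in MOR261, the family of Olfr447, 4 of 7 (0.30) and in MOR127 3 of 5 (0.32). In MOR258 3 of 5 were higher and 1 was lower (0.26). In MOR225, on chromosome 2, none of 5 was higher and 2 were lower, with a median of -0.25. Olfr1179 of this family had a change of -0.49 (adjusted p = 0.0212) and Olfr1208 one of -0.32 (adjusted p = 0.0108), with overlapping groups in both.

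The closest measured relatives of the measured deleted genes were taken as the genes outside the cluster of the same MOR families. There were 10, all class II, of which 5 were called higher and none lower, with a median log2 change of 0.16. Over all 518 genes 24.9% were higher with a median of 0.08, and over the 433 class II genes 29.8% with a median of 0.11. Olfr985, the gene next to the deletion, and Olfr1037 carry MOR171 names, a family with several deleted members. Olfr1037 rose by 0.34 (limma, adjusted p = 0.000187). Olfr1037 also has a name of the MOR256 family. Without it, a count added after the data were seen, 4 of 9 relatives were higher, with a median of 0.13. In MOR223, whose measured members outside the cluster lie in the H cluster on chromosome 14, Olfr1511 rose by 0.42 (adjusted p = 2.92e-05), Olfr1510 by 0.39 (adjusted p = 0.000187) and Olfr1513 by 0.18 (adjusted p = 0.0325). Olfr1512 of this family had a change of 0.10 (adjusted p = 0.347). In the H cluster as a whole 4 of 7 measured genes were called higher, against 24.9% of all 518 genes and 29.8% of class II. One of them, Olfr1509, is next to Olfr1510 in the gene order and is not among the 10 relatives. With the median of ratios or TMM 2 of these 7 genes were called higher, and in 2 all mutants exceeded all wild-type mice. Of the 4 measured MOR239 genes none passed the test, with changes from -0.01 to 0.13.

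Of the 5 genes outside the cluster whose probes had the highest wild-type counts, Olfr1176 rose by 0.24 (limma, adjusted p = 0.00662) and Olfr166 by 0.17 (adjusted p = 0.0326). Olfr166 did not pass with the median of ratios (0.08, adjusted p = 0.331). Olfr309, Olfr1348 and Olfr1015 had changes of 0.15, 0.16 and 0.09 that did not pass (adjusted p = 0.0540, 0.101 and 0.254). The SD of the log2 counts between mice was 0.11 in wild-type mice and 0.13 in mutants as a median over the 518 genes, and was larger in mutants in 361 of them.

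Because sex was not balanced between the genotypes, it was tested with genotype in the same model. None of the 555 OR genes differed between the sexes by limma at an adjusted p under 0.05, and 46 did at an unadjusted p under 0.05. With sex as a covariate, 127 of the 129 genes called higher and 25 of the 29 called lower kept their call.

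The same genes were then followed in a second deletion strain, ΔHxΔP, homozygous for deletions of the H and P elements, which act on OR genes of chromosomes 14 and 7. Its 6 mutants were set against the 6 wild-type companions of the same cartridge, MK29, all of mixed C57BL/6J x 129SvEv background and 21 days old. The comparisons share no mice, and 465 genes lie in none of the clusters affected. In a joint fit of the 24 mice, in which the spread of the mixed mice enters, 85 of these genes were called higher (18.3%) and 13 lower (2.8%) in ΔOlfr7Δ mice, and 72 higher (15.5%) and 72 lower (15.5%) in ΔHxΔP mice. The change differed between the strains in 109 genes (23.4%) by the test of the difference (limma, adjusted p under 0.05).

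The counts of class I genes ran the other way in the second strain. Of 83 class I genes, none was higher and 6 were lower in ΔOlfr7Δ mice by the joint fit, whereas 24 were higher and 3 lower in ΔHxΔP mice, and the medians of the log2 change were -0.05 and 0.11. The change differed between the strains in 19 of the 83. Over the same genes, the difference between class I and class II medians was 0.16 lower in ΔOlfr7Δ mice than in their wild-type mice, and 0.08 higher in ΔHxΔP mice than in theirs. In ΔHxΔP mice the values overlapped, from -0.39 to -0.12 against -0.48 to -0.23 in their wild-type mice. No test of this difference of differences is given, since the split was picked out after its values were seen.

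Olfr985 was higher in both strains, by 0.72 in ΔOlfr7Δ mice and by 0.36 in ΔHxΔP mice (limma, adjusted p = 0.000622), and the change differed by 0.36 (standard error 0.11, adjusted p = 0.0138). Some other chromosome 9 genes outside the Olfr7 cluster changed more in ΔHxΔP mice, in both directions, among them Olfr855 (1.99) and Olfr844 (-1.06). Whether the change of Olfr985 there has to do with the deletions or with the mixed background was not tested. Olfr447 had a change of -0.04 in ΔHxΔP mice (adjusted p = 0.775), a difference of 0.55 between the strains (standard error 0.13, adjusted p = 0.000914). Olfr995 differed by 0.56 (adjusted p = 0.00634) and Olfr1052 by 0.36 (adjusted p = 0.00502). Olfr560 had a change of 0.15 in ΔHxΔP mice (adjusted p = 0.313) and differed by -0.66 (adjusted p = 0.000964). Other rises were found in both strains. Olfr355 was higher by 0.79 in ΔHxΔP mice (adjusted p = 8.58e-06), Olfr1086 by 0.41 (adjusted p = 0.00143) and Olfr356 by 0.41 (adjusted p = 0.00864). Olfr1156 was higher by 0.40 (adjusted p = 0.000131), Olfr16 by 0.31 (adjusted p = 0.0198) and Olfr432 by 0.25 (adjusted p = 0.0253). For these genes the difference between the strains did not pass (adjusted p from 0.223 to 0.911). Olfr478 had a change of 0.18 in ΔHxΔP mice that did not pass (adjusted p = 0.160), nor did its difference (adjusted p = 0.0915).

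**Figure D5:**
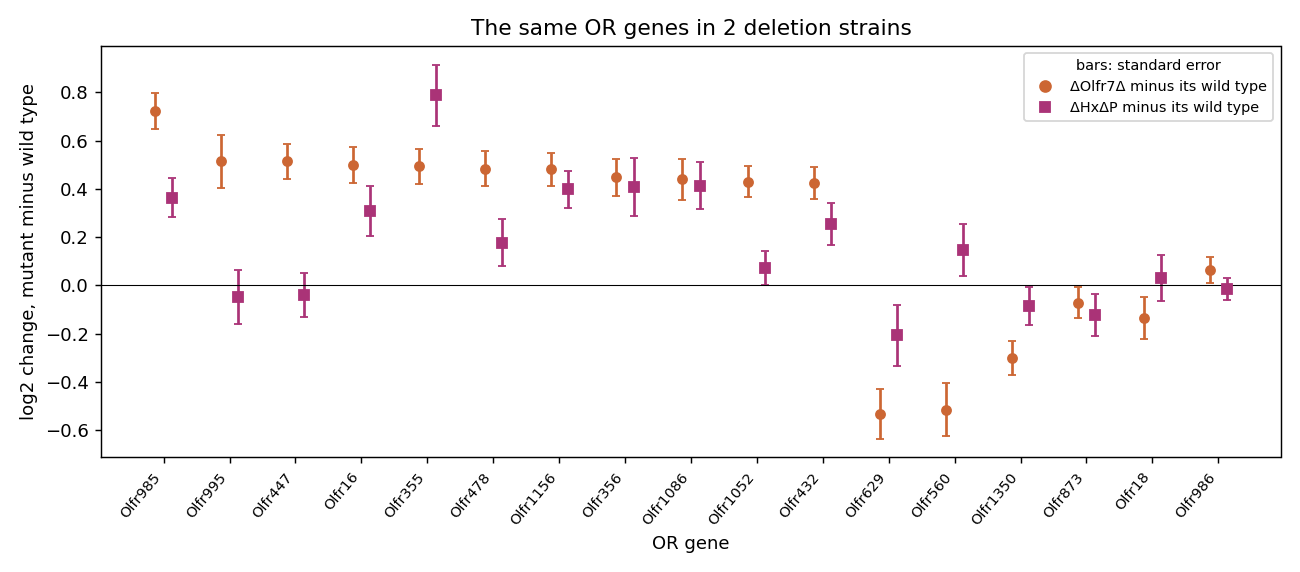
Change on the log2 scale with its standard error of genes outside the affected clusters in ΔOlfr7Δ mice (circles) and in ΔHxΔP mice (squares), each against the 6 wild-type mice of its own cartridge. Olfr985, Olfr16, Olfr355, Olfr356, Olfr432, Olfr478, Olfr1086 and Olfr1156 lie above 0 in both, whereas Olfr995, Olfr447 and Olfr1052 are near 0 in ΔHxΔP mice.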

How the data were processed

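The authors deposited raw counts per probe and lane for the lanes of all cartridges in 1 table, with no scaling and no background subtraction (recorded as other values, since empty cells and header rows share the columns). Counts of cartridge MK38 were scaled on the geometric mean of the 6 positive controls, followed by the geometric mean of the 5 reference genes. Differences were fitted with limma 3.58.1 (R 4.3.3; trended variances) to log2(scaled count + 1). All 555 OR genes passed the filter, a median of 100 background-subtracted counts in wild-type mice. tTREAT was run on rounded, background-subtracted log2 counts. Summed OR counts ran from 618163 to 1013430 per lane, and precision is limited by 6 mice a group and by the background. On simulated data for the 518 genes outside the cluster, limma called 79.1% of genes changed by a fold of 1.2 and 91.0% of those changed by 1.3. It also called 3 of 318 unchanged genes. The noise was drawn separately for each gene, and the lane scaling was taken as known. Wrong calls that come from the scale or from noise shared between genes are therefore not counted there. Chromosome, cluster and MOR names come from the OR table of the paper. Probes were aligned with edlib in Python 3.11.15. Figures were drawn with matplotlib 3.10.9. Named genes are the 12 largest rises and 8 largest falls (3 were found) called outside the cluster with no overlap, 2 flanking genes a side, reference genes, the highest genes outside the cluster, the highest and lowest genes inside it, Olfr916 and Olfr447. Members and lists were chosen with earlier results of these data known.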

Additional observations from a re-analysis of the deposited data

Results flagged for a closer look

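For Olfr629, wild-type mouse 2 had 660 scaled counts and stood apart from the other 5 wild-type mice. For Olfr969, a deleted gene, mutant mouse 1 had 40.6 scaled counts, apart from the other 5 mutants and just above the background of its lane, 40.4. Such a gap is found by chance in about 1 of 20 groups.

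The change in ΔOlfr7Δ mice differed from that in ΔHxΔP mice, by the test of the difference across both cartridges, for Olfr985 (0.36 on the log2 scale), Olfr995 (0.56), Olfr447 (0.55), Olfr1052 (0.36) and Olfr560 (-0.66). Background strain and cartridge differ between the strains as well, and their part in these differences was not tested.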

How the results depend on the processing

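The count of 129 genes outside the cluster called higher was 283 on the positive controls alone, 85 with the median of ratios and 75 in males alone, and ran from 100 to 140 when 1 mouse was left out. The count of 29 called lower was 4, 81 and 3 in the same order and 79 with TMM, and ran from 21 to 40. With 1 mouse left out all 37 deleted genes stayed lower. The number past a fold change of 1.3 was 15 on the positive controls alone, 4 with sex as a covariate, 5 with moderated variances and 1 with adjusted p-values, and ran from 1 to 3 when 1 mouse was left out. It was 1, Olfr985, without any of wild-type mice 3 to 6 or mutant mice 1, 2, 3 and 6. The summed counts differed by 0.00826 with the median of ratios (p = 0.156, exact permutation test), and by 0.08 to 0.11 when 1 mouse was left out. The difference of the medians ran from 0.11 to 0.14, the count of genes that differ between the sexes stayed at 0, and that of genes that differ between the strains ran from 83 to 122. Signs turned for Olfr873 (0.11 on the positive controls alone, 0.0622 in females alone), Olfr18 (0.0428 on the positive controls alone), Olfr986 (-0.0246 with the median of ratios, -0.0140 with TMM) and Olfr1015 (-0.000505 with the median of ratios). Of the other values of 24 named genes under an alternative, 513 kept their side of the threshold, 15 lost it and 15 passed it. The planned models of raw counts were not run, since the columns could not be recorded as plain counts. No paired analysis was possible because the labels give the 2 groups no shared replicate numbers. Levels near or under the lane background are not resolved at this depth.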
